A study of Rattus norvegicus with 6 samples.

Results

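The cytosolic ribosomal protein genes were followed through single-nucleus RNA sequencing of the rat brain after the right middle cerebral artery had been occluded for good (MCAO). Members were found by symbol: Rpl or Rps, an optional p for the P stalk, a number and an optional a, x, l or y. This gave 106 gene identifiers under 79 symbols, of 30560 genes in the files, among them 94 identifiers of the standard ribosome and 12 whose symbol ends in an added l, the mark of a paralogue. The gene family was selected on measured values, namely its higher level in the library from the severely infarcted hemisphere. Everything said of that contrast is therefore a description and carries no test.

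Tissue came from male wild-type (WT) Wistar rats, 12 weeks old, taken 48 h after the operation. A filament closed the artery permanently, and the lesions were sorted by size into a moderate (mMCAO, 3 rats) and a severe (sMCAO, 4 rats) pool, beside 4 Sham-operated rats. Both hemispheres of each pool were processed apart, giving 6 libraries: Sham L, Sham R, mMCAO contra, mMCAO ipsi, sMCAO contra and sMCAO ipsi, where ipsi is the side of the occlusion. The groups compared were Sham, the 2 MCAO contra libraries and the 2 MCAO ipsi libraries. The 2 Sham libraries hold the same rats, as do the contra and ipsi libraries of one severity, so p-values measured only the spread between pooled libraries, and a severity was seen in 1 library per hemisphere.

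The ribosome is assembled in the nucleolus from ribosomal RNA and ribosomal proteins, which form a small subunit (RPS proteins), a large subunit (RPL proteins) and the acidic P stalk, where elongation factors dock. Ribosomal protein mRNAs are among the most abundant messengers of the cytoplasm. A nucleus holds only the newly made part of them, together with whatever cytoplasm clings to it or floats in its droplet. Most of these mRNAs start with a 5′ terminal oligopyrimidine (TOP) stretch, a C followed by a run of C or T, through which their translation is controlled together.

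The start windows below show that stretch in members with high and low ratios between the infarcted libraries. They also show windows without it, in the paralogues Rpl7l1 and Rps27l and in the standard members Rpl3 and Rps2. Each window runs from 8 bases before the annotated start to the 22 bases that begin with it, 30 bases in all, and comes from RefSeq on build GRCr8. Capitals mark a C followed by at least 4 C or T, read on the gene's strand only and beginning within 5 bases of the start.
Rplp1: catgtgatCCTTTCCTCagctgccgccaag
Rpl19: agcaagCTCTTTCCTTTCgctgctgcgtct
Rplp0: ccgcaCTTCTCTCgccaggcgtcctcatta
Rpl31: ccctcgcgCCTTTCCTTTCCaacttgggcc
Rpl22: gccCCCCTCCCTTTCTgcctcctctgccgc
Rpl3: ctgctcgatctctatcggcggcgtgtggcg
Rps2: tttttcttcgggaaaacacgtgagtctgtg
Rpl7l1: gatgcattgtgggaagcctttaactcgttg
Rps27l: catttgtcattatttgtggtgtccagagat
These windows lie at chr8:71290851-71290880 (minus strand, Rplp1), chr10:83519056-83519085 (plus, Rpl19), chr12:46718369-46718398 (minus, Rplp0), chr9:49143103-49143132 (plus, Rpl31), chr5:168117953-168117982 (plus, Rpl22), chr7:113507969-113507998 (minus, Rpl3), chr10:14251840-14251869 (plus, Rps2), chr9:21695710-21695739 (plus, Rpl7l1) and chr8:76443650-76443679 (plus, Rps27l). Each spans the first bases of the annotated transcript. Of the 79 member symbols 59 had a promoter in the RefSeq table. The annotated start base was itself a C followed by at least 4 C or T in 33.9% of them, against 2.63% of all 33469 promoters, and such a stretch began within 5 bases of the start in 61.0% against 17%.

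The 6 libraries held 33012945 to 52513380 UMIs (unique molecular identifiers, 1 per captured RNA molecule), with a median of 2059 to 3360 per nucleus and the lowest median in sMCAO ipsi. Members held 221988 UMIs in all. Any pair of libraries shared 118 to 281 barcodes. Nuclei were assigned to 10 classes by marker genes and not by the study's clusters, so each class is marker-gated and only "-like" its name. In sMCAO ipsi the median oligodendrocyte nucleus held 17 UMIs of oligodendrocyte markers and 0 of astrocyte, myeloid and vascular markers, and the median myeloid nucleus 11 UMIs of myeloid markers. Of 73649 nuclei 4971 (6.75%) fitted no class and 7801 (10.6%) lay near the limit that separates neurons from other cells.

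Over all nuclei, ribosomal protein genes held 485 and 545.5 CPM (counts per 1000000 UMIs) in Sham L and Sham R. The contralateral libraries held 736 (mMCAO) and 749 CPM (sMCAO), and the ipsilateral ones 809.7 (mMCAO) and 2399 CPM (sMCAO). Both Sham libraries were the lowest, the contralateral and moderate libraries lay above them, and sMCAO ipsi stood apart at the top. The severe library held 2.96 times the level of mMCAO ipsi (95% interval 2.93 to 3.0). This and all intervals on single libraries cover counting error only, since no severity was replicated within a hemisphere. Class shares also differed: myeloid nuclei made up 8.13% of mMCAO ipsi and 20.2% of sMCAO ipsi, neurons of no subtype 41.7% and 19.1%. The median of the ratios taken within the 10 classes was lower, at 1.90. The part of the class shares in the ratio over all nuclei was not tested.

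The level was higher in sMCAO ipsi than in mMCAO ipsi in every class, and in 9 of 10 with nuclei thinned to 1000 UMIs. Unthinned values follow. The sMCAO ipsi library was the highest of the 6 in 10 of 10 classes, and each class interval of its ratio to mMCAO ipsi lay above 1. Glutamatergic neurons held 419, 474, 638, 597, 655 and 1068 CPM in the order Sham L, Sham R, mMCAO contra, mMCAO ipsi, sMCAO contra and sMCAO ipsi. In the same order, myelinating oligodendrocytes held 816, 927, 1073, 1521, 1082 and 4425 CPM. Both classes had sMCAO ipsi on top, but only the oligodendrocytes also had mMCAO ipsi above both contralateral libraries. The 3 other neuron classes lay at 459 to 586 CPM in Sham, 641 to 758 in the contralateral libraries, 665 to 749 in mMCAO ipsi and 1169 to 1295 in sMCAO ipsi.

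Oligodendrocyte precursor cells (OPC) held 743, 837, 971, 1595, 1029.9 and 3125 CPM in the same order of libraries. Astrocytes held 771, 963, 1079, 1464, 1156 and 3280 CPM. Myeloid cells, a gate that pools microglia and macrophages, held 1176, 859.9, 1626, 2063, 2102 and 6475 CPM. In OPC and astrocytes mMCAO ipsi came next below sMCAO ipsi, as in oligodendrocytes, while in myeloid cells mMCAO ipsi and sMCAO contra did not differ beyond counting error. The 156 myeloid nuclei of sMCAO contra were uneven, with a variance over mean of 22.1 against 2.84 in mMCAO ipsi, so their order is uncertain. The Sham myeloid values rested on 34 and 18 member UMIs from 24 and 27 nuclei. The paper found its macrophage-enriched clusters more abundant in severe than in moderate infarcts. Among its myeloid cells, it placed raised protein synthesis genes, such as Rpl13 and Rplp1, largely in those clusters. It saw no substantial difference between the severities in the profiles of single myeloid subclusters. The part of a shift in macrophage share in the myeloid values was not tested.

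Vascular cells stood apart in level: they held 5884, 6922, 6108, 8923, 9114 and 11298 CPM in that order, 1.74 to 7.19 times the next class in each library. Their ratio between the infarcted libraries (severe over moderate) was the lowest of all classes at 1.27 (1.21 to 1.33). With every nucleus thinned to 1000 UMIs it became 0.99, so no direction can be given for them. Haemoglobin mRNAs, which come from red cells, held 1655 to 7851 CPM in the same vascular-gated nuclei. The part of red cell RNA in the vascular level was not tested.

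**Figure D1:**
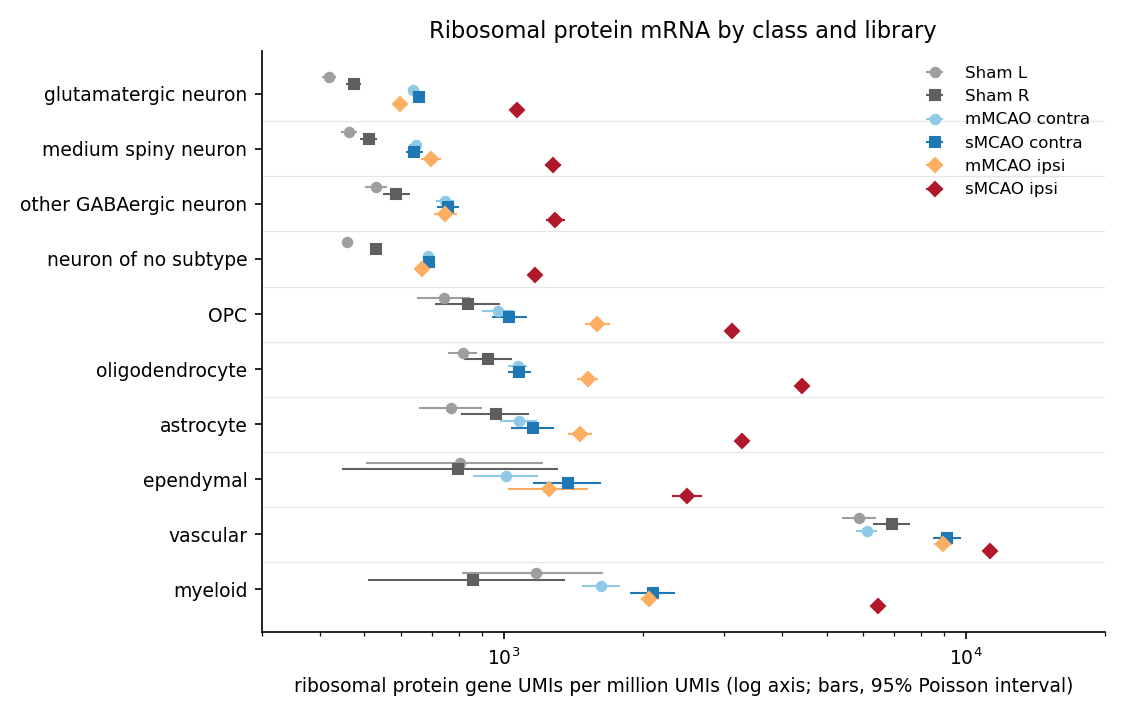
Summed UMIs of the 106 ribosomal protein genes per 1000000 UMIs (log axis) in each marker-gated class, 1 point per library, with bars for the 95% Poisson interval. The sMCAO ipsi point is the rightmost in all 10 classes, and the vascular points lie to the right of the other classes in every library.

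Set as a ratio, the difference between the infarcted hemispheres varied among classes. It was 1.73 to 1.84 in the 4 neuron classes, 1.96 in OPC, 1.99 in ependymal cells, 2.24 in astrocytes, 2.91 in oligodendrocytes and 3.14 in myeloid cells. The classes with the highest ratios were those with the shallowest nuclei: mean UMIs per nucleus in sMCAO ipsi were 1286 in oligodendrocytes and 1337 in myeloid cells, against 9066 in glutamatergic neurons. Depth in sMCAO ipsi thus spanned 7.05 times between classes. Vascular nuclei broke this order: their median depth, 1409 UMIs, came next above those of myeloid cells and oligodendrocytes, yet their ratio was the lowest at 1.27.

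Set as added molecules, the order of the classes was different. The surplus was the ribosomal protein UMIs per nucleus in sMCAO ipsi beyond those expected from the mMCAO ipsi CPM at that mean depth. It was 4.27 UMIs (3.99 to 4.55) in glutamatergic neurons, 3.77 (3.38 to 4.16) in medium spiny neurons, 3.29 (2.85 to 3.73) in other GABAergic neurons and 3.74 (3.58 to 3.91) in neurons of no subtype. Among other cells it was 3.81 (3.46 to 4.16) in OPC, 3.73 (3.57 to 3.90) in oligodendrocytes and 4.72 (4.39 to 5.05) in astrocytes. It reached 4.76 (3.85 to 5.66) in vascular and 5.90 (5.73 to 6.07) in myeloid cells, and was lowest in ependymal cells at 2.82 (2.12 to 3.51).

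On counting error alone, the interval of the surplus lay above 0 in 10 of 10 classes. Vascular nuclei were very uneven, with a variance over mean of 100 in sMCAO ipsi and 29.6 in mMCAO ipsi. Their interval is therefore too narrow, and no direction is given for their surplus. Outside the vascular class the ratio ran from 1.73 to 3.14 and the surplus from 2.82 to 5.90 UMIs. Myeloid cells had the highest value, with an interval above those of the 9 other classes on counting error alone. That interval leaves out the unevenness between nuclei. In sMCAO ipsi the variance over mean was 14.1 in myeloid cells and 10.0 in astrocytes, so the order of the highest classes is uncertain. Neurons of no subtype, medium spiny neurons, OPC and oligodendrocytes had overlapping intervals around the lower values. The 1071 nuclei of no class had a surplus of 5.41 UMIs (5.17 to 5.66), between astrocytes and myeloid cells.

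**Figure D2:**
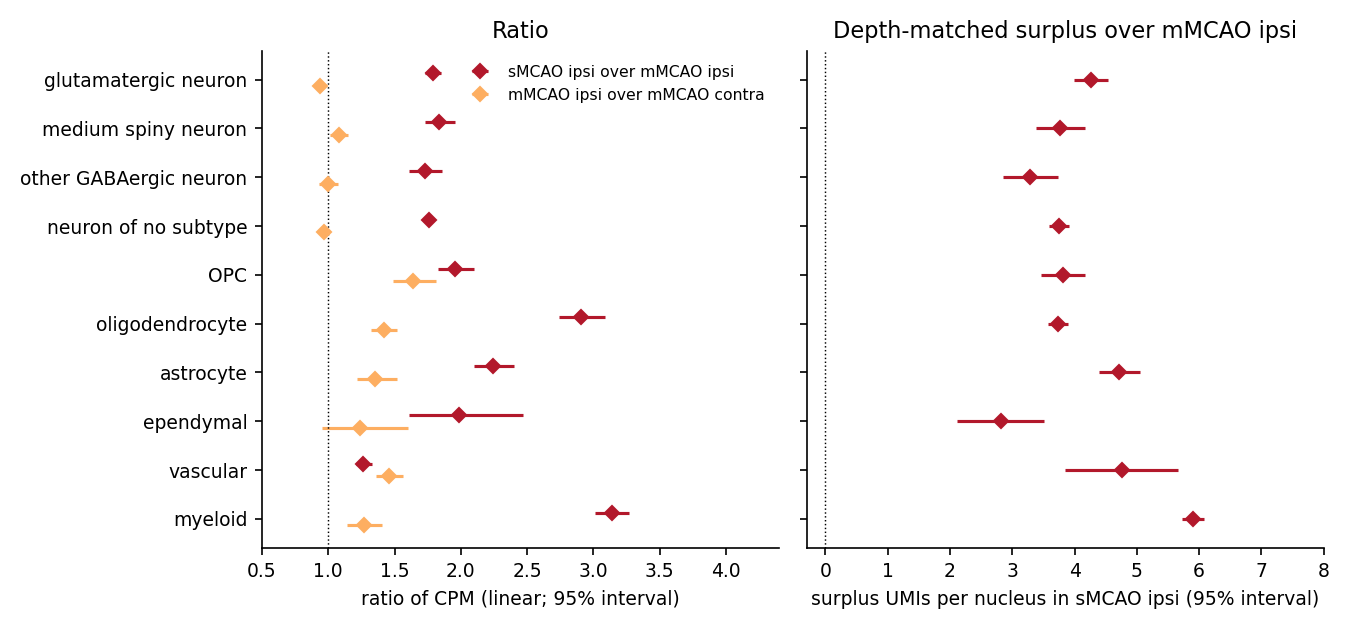
Left, the ratio of summed ribosomal protein gene CPM per class, sMCAO ipsi over mMCAO ipsi (dark) and mMCAO ipsi over mMCAO contra (light), on a linear axis with 95% intervals. Right, the surplus of ribosomal protein UMIs per nucleus in sMCAO ipsi over the mMCAO ipsi CPM scaled to the mean depth of sMCAO ipsi. Severe over moderate ratios run from 1.27 to 3.14, while the surplus lies between 2.82 and 5.90 UMIs in all 10 classes.

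Within each class, few nuclei of sMCAO ipsi held no ribosomal protein UMI, though depth differed between the libraries. The share of glutamatergic neurons with no ribosomal protein UMI was 18.7% in Sham L, 6.67% in mMCAO ipsi and 0.158% in sMCAO ipsi. Their median depths were 4252, 4956 and 8828.5 UMIs. In oligodendrocytes the share was 53.0%, 34.6% and 2.35% in the same libraries, at median depths of 655, 693.5 and 1103 UMIs. In sMCAO ipsi the 10th percentile of ribosomal protein UMIs per nucleus was 1 to 4 in all classes, against 0 or 1 in mMCAO ipsi. No brain cell class lacks ribosomes, so a share in cells without these mRNAs could not be set beside these.

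Depth differed between the libraries, so the shares were also taken at equal depth. With nuclei thinned to 1000 UMIs, the share of oligodendrocytes with a ribosomal protein UMI was 70.7% in mMCAO ipsi and 94.2% in sMCAO ipsi, after 947 and 540 shallower nuclei were left out. In myeloid cells it was 84.1% and 98.1%, with 701 and 801 left out. In glutamatergic neurons it was 44.1% and 64.7%, with 0 left out in both. In vascular cells it was 91.5% and 97.0%, with 95 and 148 left out. There the thinned median was lower in sMCAO ipsi, at 6 UMIs against 9 in mMCAO ipsi.

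The difference was also present among glia, myeloid nuclei and neurons of like depth. Among glia (astrocytes, oligodendrocytes and OPC) of 500 to 1000 UMIs, a nucleus held 1.11 ± 0.034 (SE over 1346 nuclei of 1 library) ribosomal protein UMIs in mMCAO ipsi and 4.41 ± 0.166 (615 nuclei) in sMCAO ipsi. Among myeloid nuclei of that depth it held 1.73 ± 0.061 (701 nuclei) and 5.96 ± 0.206 (801 nuclei). In UMIs per nucleus the difference was larger in deeper glia, while in CPM, given below, it was smaller. Those of 4000 to 8000 UMIs held 4.82 ± 0.66 (17 nuclei) in mMCAO ipsi and 12.8 ± 0.926 (150 nuclei) in sMCAO ipsi. Neurons of 4000 to 8000 UMIs held 3.33 ± 0.034 (4047 nuclei) and 7.91 ± 0.164 (1466 nuclei). In vascular nuclei the direction changed with depth. Those of 500 to 1000 UMIs held 3.93 ± 0.569 (95 nuclei) in mMCAO ipsi and 5.19 ± 0.468 (148 nuclei) in sMCAO ipsi. Those of 1000 to 2000 UMIs held 15.2 ± 1.85 (60 nuclei) and 10.1 ± 0.869 (142 nuclei).

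The share of ribosomal protein UMIs was lower in deeper nuclei of sMCAO ipsi among neurons, glia and myeloid cells: it was 5554 CPM in glia of 500 to 1000 UMIs and 2471 CPM in the 150 glia of 4000 to 8000 UMIs. Other libraries had this fall too. At the same depths mMCAO ipsi glia held 1580 and 938 CPM, its neurons 1496 and 615, and Sham L neurons 883 and 429. In vascular nuclei of sMCAO ipsi the share was higher in deeper nuclei, with 7165 CPM at 500 to 1000 UMIs and 15372 CPM in the 44 nuclei of 4000 to 8000 UMIs. In vascular nuclei of mMCAO ipsi it was 5505 and, in only 5 nuclei, 9589 CPM. Those 44 nuclei of sMCAO ipsi also held 35.3 haemoglobin UMIs each, against 0.459 in its vascular nuclei of lowest depth.

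**Figure D3:**
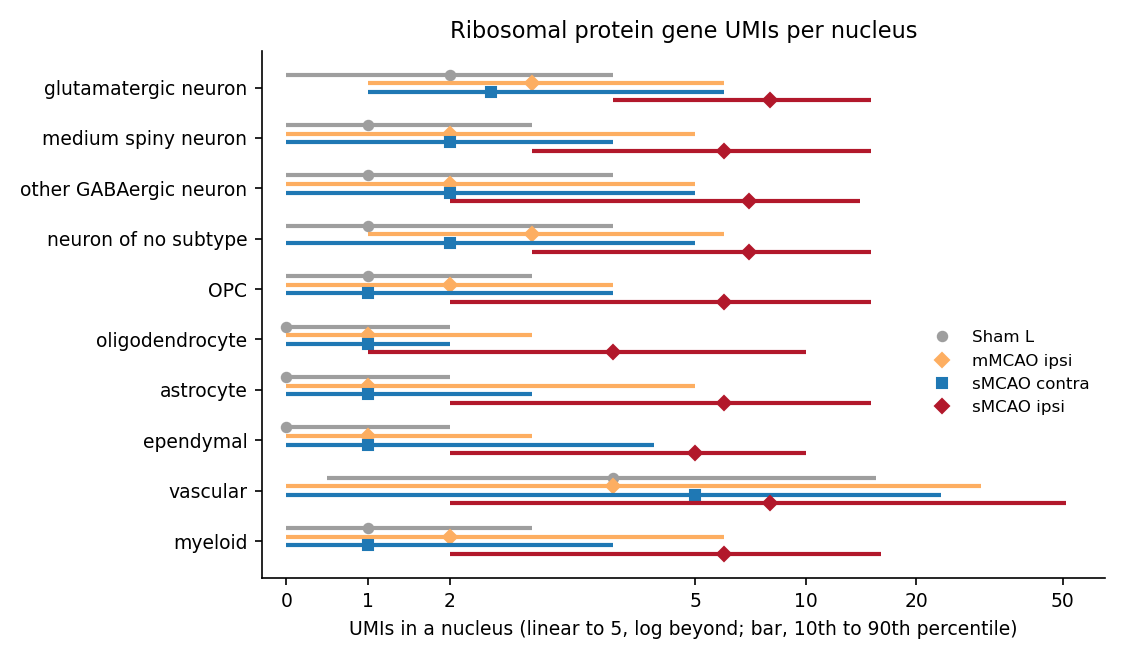
Ribosomal protein gene UMIs in a nucleus, per class (axis linear to 5, log beyond), in Sham L, mMCAO ipsi, sMCAO contra and sMCAO ipsi, with the median as a point and a bar from the 10th to the 90th percentile over the nuclei of that library. In sMCAO ipsi the lower end of the bar is at 1 to 4 UMIs in every class, against 0 or 1 in mMCAO ipsi.

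Other RNAs moved with the ribosomal protein genes between the infarcted libraries. The mRNAs encoded in mitochondria, which lie outside the nucleus, held 695 CPM over all nuclei in mMCAO ipsi and 2129 in sMCAO ipsi. By class their ratio ran from 0.96 in medium spiny neurons and 0.97 in ependymal cells to 4.57 in myeloid cells, with a surplus of −0.59 to 6.57 UMIs per nucleus. The surplus of the mitochondrially encoded mRNAs was below 0 in 2 classes, where that of the ribosomal protein genes was not.

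Haemoglobin mRNAs held 13.6, 19.8, 45.3, 19.3, 16.4 and 155 CPM over all nuclei from Sham L to sMCAO ipsi. Outside the vascular class their severe to moderate ratio was 3.96 to 9.87, and their surplus 0.157 to 0.338 UMIs per nucleus. A haemoglobin UMI was found in 21.5% of sMCAO ipsi nuclei and in 1.39% to 3.74% of nuclei in the other 5 libraries.

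Within sMCAO ipsi, nuclei with a haemoglobin UMI held more ribosomal protein UMIs. Oligodendrocytes with at least 1 haemoglobin UMI held 9.45 ribosomal protein UMIs per nucleus and those with 0 held 4.73, at median depths of 1222 and 1086 UMIs. For myeloid cells the values were 14.2 and 7.10 at 1072.5 and 1046 UMIs, and for glutamatergic neurons 14.0 and 8.42 at 9513 and 8658 UMIs. In mMCAO ipsi oligodendrocytes the values were 1.31 and 1.20, a much smaller gap from only 35 nuclei with a haemoglobin UMI.

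Without the nuclei that held a haemoglobin UMI, the severe over moderate ratio was still above 1 in 10 of 10 classes, at 1.25 to 2.58. Its median over classes was 1.73, against 1.90 with all nuclei. The part of free RNA, of red cell RNA and of cytoplasm on the nuclei in the higher ribosomal protein level was not tested beyond these values.

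Neuronal mRNAs found in other cells went the opposite way. Summed pan-neuronal markers in oligodendrocytes held 13716, 12814, 8345, 6451, 8802 and 2745 CPM from Sham L to sMCAO ipsi. In sMCAO ipsi relative to mMCAO ipsi, these markers were lower in 10 of 10 classes, at ratios of 0.27 to 0.95. The same markers set the limit between neurons and other cells, which bounds their share in both. Neurons of no subtype made up 41.7% of the nuclei in mMCAO ipsi and 19.1% in sMCAO ipsi, and the part of this difference in the marker levels was not tested.

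Genes whose products work beside the cytosolic ribosomal proteins showed smaller differences. Other mRNAs known for a TOP, such as those of translation factors (14 of 18 listed found), had ratios of 1.05 to 1.74 over classes. Of the 12 with a RefSeq promoter, 0 had the stretch at the annotated start base and 5 (41.7%) within 5 bases of it, against 35.3% of the abundant cytosolic mRNAs named below. Of these, Hnrnpa1, an RNA-binding protein, held 59.7 CPM in mMCAO ipsi and 87.4 in sMCAO ipsi, and Nap1l1, a histone chaperone, 102 and 109. Ribosome assembly factors, which act in the nucleolus, had ratios of 0.92 to 1.53, and their Nop58 held 89.4 and 110.4 CPM.

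Mitochondrial ribosomal proteins, encoded in the nucleus, had ratios of 0.92 to 1.26, with Mrps28 at 61.2 and 76.6 CPM. Nuclear-encoded respiratory chain genes had ratios of 1.04 to 1.43, and their Uqcrc2 held 109 and 104 CPM. Abundant cytosolic mRNAs, such as calmodulin and glycolysis genes, had ratios of 1.14 to 2.05, with Itm2b at 87.7 and 132 CPM. The ribosomal protein genes had a median ratio over classes of 1.90, above the medians of 1.07 to 1.41 of these 5 nuclear-encoded lists.

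**Figure D4:**
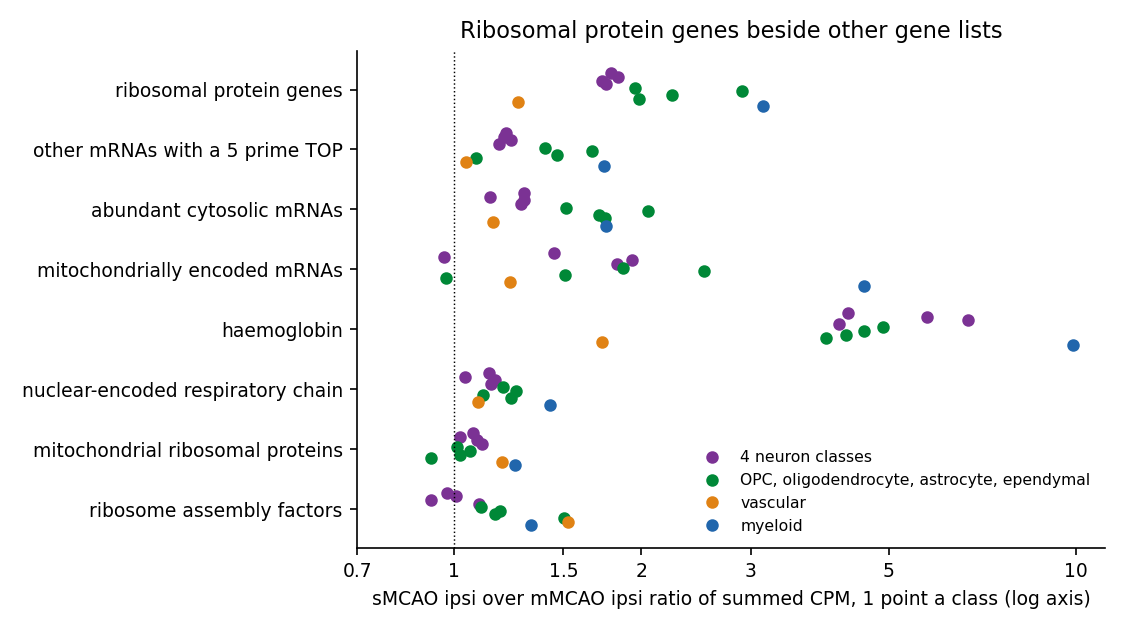
Ratio of summed CPM in sMCAO ipsi over mMCAO ipsi (log axis) for the ribosomal protein genes and other gene lists, 1 point per class. Ribosomal protein genes lie at 1.27 to 3.14, and haemoglobin (up to 9.87) and mitochondrially encoded mRNAs (up to 4.57) reach higher values.

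The single genes shared the direction but not the size. Of 106 members, 12 had 0 UMIs in all 6 libraries, 69 had a mean of at least 1 CPM, and 37 lay under it. The 69 with at least 50 UMIs in both infarcted libraries could be compared, and no value is given for the rest as a group. In those 69, sMCAO ipsi was the highest library every time, and ratios to mMCAO ipsi ran from 1.39 to 6.25 with a median of 3.10. Of all 13862 genes with such counts, 79.7% had a ratio above 1, the median ratio was 1.22, and 3.25% were at or above the median of the ribosomal protein genes. Levels of single genes and subunits are over all nuclei unless a class is named, and class shares differed between the infarcted libraries.

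Among the most counted members was Rpl3, a core protein of the large subunit near the peptidyl transferase centre. It held 19.5, 21.3, 29.6, 28.4, 27.7 and 59.9 CPM from Sham L to sMCAO ipsi, a ratio between the infarcted libraries of 2.11 (1.97 to 2.27). Both Sham libraries were the lowest and sMCAO ipsi stood apart. UMIs were not scaled to transcript length, so CPM order one gene across libraries and do not order genes against each other.

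Rpl19, of the large subunit, held 11.1, 12.7, 20.2, 20.7, 21.1 and 73.6 CPM (ratio 3.56). Rps20, a small-subunit protein of the head, held 5.47, 8.15, 11.3, 17.2, 11.5 and 66.1 CPM (ratio 3.84). In Rps20, unlike Rpl19, mMCAO ipsi lay clearly above both contralateral libraries. Rps21, Rplp0, Rps2, Rpl22, Rpl14 and Rpl17 were also among the 10 members with the highest mean CPM. Apart from Rpl22, the ratios of these ran from 2.16 (Rpl17) to 3.78 (Rps2). The 10 held 25.1% of the member UMIs in kept nuclei.

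The highest ratios were found in both subunits and in the stalk. Rps29, a zinc-binding protein of the small subunit, held 4.74, 5.30, 10.4, 11.7, 13.6 and 72.4 CPM, a ratio of 6.16 (5.60 to 6.79). Rplp1, of the acidic P stalk, held 4.83, 5.13, 7.80, 12.2, 9.04 and 68.7 CPM, a ratio of 5.62 (5.11 to 6.18). In both genes each of the 5 other libraries lay far below sMCAO ipsi.

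Rpl32, of the large subunit, followed with a ratio of 4.77. The highest ratio of all, 6.25 (4.93 to 8.0), was that of a second Rpl30 identifier, ENSRNOG00000032825, with only 85 and 386 UMIs in the infarcted libraries. The main Rpl30 identifier, ENSRNOG00000068679, had 2.95. In all 16 symbols carried several identifiers (43 identifiers), and near-identical copies may share reads, so their split is uncertain. Rpl13, a large-subunit protein, held 8.90, 9.68, 14.3, 14.1, 14.2 and 51.2 CPM (ratio 3.63).

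At the low end, Rpl22 stood near the other libraries. This RNA-binding protein of the large subunit held 19.7, 22.9, 22.9, 20.4, 21.6 and 28.3 CPM, a ratio of 1.39 (1.27 to 1.53). Rpl31 had 1.56, Rpl39, a short protein of the exit tunnel, 1.56, and Rpl23a, at the exit of that tunnel, 1.52. The paralogue Rpl7l1 had 1.51. Rpl22, Rpl31 and Rpl39 have a pyrimidine stretch at their start, and so does Rplp1 at the other end of the scale.

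Of the other paralogues, Rpl22l1 had a ratio of 2.12 (1.81 to 2.48) and Rps27l 2.13 (1.77 to 2.57). Rpl10l, with 35 and 12 UMIs in mMCAO ipsi and sMCAO ipsi, had 0.47 (0.22 to 0.93) and was the sole named member lower in sMCAO ipsi with an interval below 1. Rpl3l and Rpl39l held 35 and 3 UMIs in all 6 libraries together. By subunit, the P stalk members (4 identifiers) had a ratio of 4.24 (4.01 to 4.47), the small subunit (38) 3.18 (3.12 to 3.24) and the large subunit (64) 2.68 (2.63 to 2.72).

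Of 54 members at 1 CPM or more with a promoter in the table, the 33 with a stretch within 5 bases of the start had a median ratio of 3.24 (1.39 to 5.62). The 21 without had a median of 2.68 (1.51 to 4.43), so the ranges overlapped almost wholly. The ratio was lower in members with a higher Sham level (Pearson r = −0.49 over 69 genes of the same libraries, a description).

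**Figure D5:**
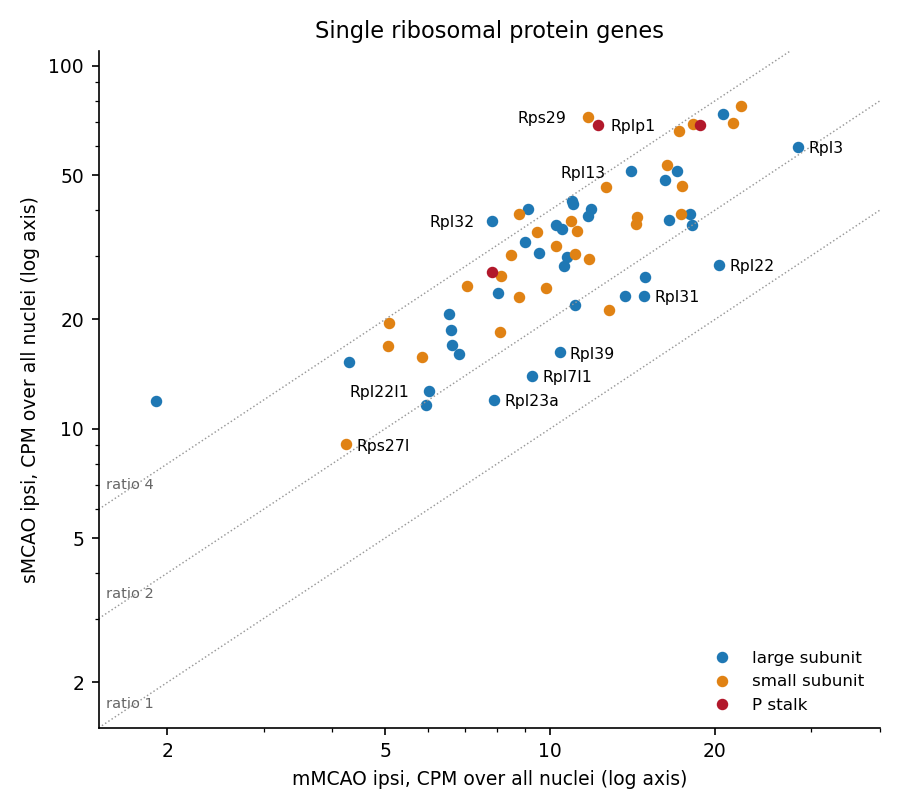
CPM over all nuclei in sMCAO ipsi against mMCAO ipsi for single ribosomal protein genes (both axes log), 1 point per gene. All 69 compared genes lie above the line of equal level, with Rps29 and Rplp1 (ratios 6.16 and 5.62) far from it and Rpl22 (1.39) close to it.

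Single genes had a surplus in most classes, of varying size. Rplp1 added 0.177, 0.128, 0.116 and 0.126 UMIs per nucleus in glutamatergic, medium spiny, other GABAergic and unassigned neurons. It added 0.211 in OPC, 0.144 in oligodendrocytes, 0.174 in astrocytes, 0.186 in vascular and 0.240 in myeloid cells. Its ratio in the same classes ran from 1.33 in vascular cells to 7.53 in OPC. Rps29 added 0.074 to 0.272 UMIs per nucleus in those 9 classes. In ependymal cells the surplus was 0.043 for Rplp1 and −0.013 for Rps29.

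Rpl22 added 0.003 to 0.052 UMIs per nucleus in the same 9 classes, with a surplus of −0.025 in ependymal cells. Of the 69 genes, 40 had a surplus above 0 in all 10 classes and 57 in at least 9. Across the 69 genes, the surplus in one class was correlated with that in another at Pearson r = 0.39 to 0.92 (median 0.76, 36 pairs of the 9 classes other than ependymal) and, in the pairs with ependymal cells, at 0.14 to 0.47. The plain levels in mMCAO ipsi were correlated between the same 9 classes at 0.35 to 0.97. This is a description over genes of the same pair of libraries, which are not independent replicates.

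In the moderately infarcted hemisphere the pattern split by cell class. The ratio of mMCAO ipsi to mMCAO contra was 0.94 (0.91 to 0.97) in glutamatergic neurons, 1.08 (1.02 to 1.15) in medium spiny neurons, 1.0 (0.93 to 1.08) in other GABAergic neurons and 0.97 (0.95 to 0.99) in neurons of no subtype. It was 1.64 (1.49 to 1.81) in OPC, 1.42 (1.32 to 1.52) in oligodendrocytes, 1.36 (1.22 to 1.52) in astrocytes, 1.46 (1.36 to 1.56) in vascular and 1.27 (1.15 to 1.41) in myeloid cells. Ependymal cells had 1.24, with an interval of 0.95 to 1.60 that held 1.

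The neuron ratios lay at or near 1 and those of OPC, oligodendrocytes, astrocytes, vascular and myeloid cells above it. With 1 library on each side the difference has no replicate check. Haemoglobin over all nuclei was lower in mMCAO ipsi (19.3 CPM) than in mMCAO contra (45.3 CPM), where vascular nuclei held 1587 of 2361 haemoglobin UMIs. In mMCAO contra and mMCAO ipsi it was 28.1 and 47.8 CPM in oligodendrocytes, 5.62 and 16.2 in OPC and 20.6 and 22.5 in astrocytes. It was lower in mMCAO ipsi in vascular (6764 and 1655) and myeloid cells (34.6 and 28.5). The part of red cell RNA in these ratios was not tested. Between the 2 Sham libraries, which had no lesion, class ratios of the ribosomal protein genes (Sham R to Sham L) ran from 0.73 (0.39 to 1.33, myeloid) to 1.25 (0.99 to 1.58, astrocytes).

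The 2 contralateral hemispheres were alike in neurons and glia, with sMCAO contra to mMCAO contra ratios of 0.99 to 1.07. The ratio was higher in ependymal (1.36), vascular (1.49) and myeloid cells (1.29). The myeloid value rests on few nuclei of sMCAO contra: the 30 of 1000 to 2000 UMIs held 4.03 ± 2.74 (SE) ribosomal protein UMIs each. Thinned to 1000 UMIs, the share of myeloid nuclei with such a UMI was 76.5% in mMCAO contra and 56.1% in sMCAO contra, so no direction can be given for them. Both contralateral libraries lay above both Sham libraries in 9 of 10 classes. The exception was the vascular class, where mMCAO contra (6108 CPM) lay below Sham R (6922 CPM). The mean of the contralateral libraries was 1.19 (vascular) to 1.83 (myeloid) times the Sham mean, and 1.45 in glutamatergic neurons. This order was common among other genes too. Over all nuclei, 65 of the 69 compared members had both contralateral libraries above both Sham libraries, against 63.1% of all genes.

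MCAO contra against Sham holds no infarcted tissue and compares libraries other than the one the members were selected on. The fit took all 6 libraries, though, for its filter on low counts and its spread, so sMCAO ipsi entered both. edgeR's quasi-likelihood test was run on UMIs summed per library and class over 9 classes, with Benjamini-Hochberg adjustment over all genes of a class. A call needed an adjusted p under 0.05 and a log2 fold change of at least 0.6 in size. It called 0 of 496 member and class pairs, against a background of 0.0578% of all 86490 gene and class pairs called higher. DESeq2 also called 0, and 55 pairs (11.1%) had an unadjusted p under 0.05, against 11.5% of all genes.

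The direction was less even than over all genes: 79.2% of member pairs had a log2 fold change above 0, against 51.7% of all. Class medians of the members ran from 0.24 to 1.09 on the log2 scale and those of all genes from −0.01 to 0.23. The count of calls changed with the libraries in the fit, and the cause was not tested. It was 38 of 557 without mMCAO ipsi (0.948% of all pairs) and 36 of 466 without sMCAO ipsi (0.965%). With the Sham and contralateral libraries alone it was 34 of 358, where 1.01% of all pairs were called higher. Of these 34, 15 were in neurons of no subtype, 14 in glutamatergic neurons, 4 in medium spiny neurons and 1 in oligodendrocytes.

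MCAO ipsi against Sham includes the library that the gene family was selected on, so nothing is read from its counts. Members were higher in 100 of 496 pairs, against a background of 3.14%, and lower in 0. By class, 26 of 69 members tested were called in medium spiny neurons (background 2.67%), 26 of 70 in neurons of no subtype (4.34%), 5 of 68 in glutamatergic neurons (2.27%) and 7 of 66 in other GABAergic neurons (0.381%). Outside neurons, 22 of 51 were called in OPC (7.8%), 8 of 66 in oligodendrocytes (1.67%), 6 of 24 in astrocytes (7.69%), 0 of 60 in vascular cells (0.194%) and 0 of 22 in myeloid cells (0%). The count was lower with sMCAO ipsi left out and lower still with Sham L left out, and each of these fits leaves a lone library in a group.

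In this comparison, whose calls follow from the selection and are no support, Rps20 was called in the most classes, 7 of 9. In oligodendrocytes it held 6.71 and 13.5 CPM in Sham, 18.7 and 16.1 in the contralateral libraries, 30.7 in mMCAO ipsi and 151 in sMCAO ipsi. Both Sham libraries were the lowest and sMCAO ipsi stood apart at the top. In other GABAergic neurons it held 5.94 and 5.30 CPM in Sham, 20.2 in mMCAO ipsi and 38.7 in sMCAO ipsi. Rplp0, Rps2, Rpl28 and Rps29 were each called in 5 classes, and 41 symbols in at least 1.

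MCAO ipsi against MCAO contra compares the 2 sides of the same rats. It too includes the library that the family was selected on, and nothing is read from its counts. Members were called higher in 38 of 496 pairs, against a background of 2.08%, and lower in 0. Without sMCAO ipsi 3 of 466 pairs were called, where 1.97% of all pairs were called higher, and without mMCAO ipsi 302 of 557 (5.35% of all pairs). Each of these fits assumes that the lone ipsilateral library varies like the other groups.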

How the data were processed

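Nuclei were isolated from snap-frozen coronal slices on an iodixanol gradient, and 10x 5′ libraries were made from pooled rats. The authors' Cell Ranger 7.0.0 output on mRatBN7.2 was deposited as raw UMI counts per gene and nucleus, intronic reads included. The authors' later removal of free RNA, of doublets and of low-quality nuclei is not in these counts. No doublet caller was run here and free RNA was not subtracted.

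Nuclei with at least 500 UMIs, 250 to 5000 genes and at most 5% mitochondrially encoded UMIs were kept (8665 to 14491 per library). A nucleus was called neuronal at 2.5% or more pan-neuronal marker UMIs. Neuron subtypes and other classes needed at least 2 markers, 2-fold enrichment and a 2-fold lead over the next class. Medium spiny neurons needed no lead over other GABAergic neurons, but other GABAergic neurons needed the lead over medium spiny neurons. Nuclei between 2% and 3% pan-neuronal marker UMIs were counted as near the neuronal limit, which was set with the data in view. Members, marker lists and gene lists were chosen with earlier results of these data known. Counts were summed per library and class, and levels and ratios carry exact 95% Poisson intervals and the surplus per nucleus a normal 95% interval from the counts, all for counting error only. Thinned values rest on nuclei of at least 1000 UMIs, and 11717 of 73649 (15.9%) were shallower.

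Classes with at least 20 nuclei in every library (9 of 10, ependymal cells left out) went into edgeR 4.0.16 (R 4.3.3) with TMM scaling, filterByExpr, quasi-likelihood F test over all 6 libraries in 3 groups (3 residual degrees of freedom), Benjamini-Hochberg adjustment per class and comparison. DESeq2 1.42.0 was an alternative, and the others were size factors, filters, a stricter gate, each library left out and a replicate block. In simulated counts with 200 genes changed 4-fold, the test recovered 40% of them in myeloid sums (5541 genes, MCAO ipsi against Sham) and 81% to 97.5% in the other 8 classes. The simulation gave all genes the same spread and all libraries the same profile, and changed only genes of higher count. It therefore gives no recovery for smaller changes or for groups whose libraries differ. Ipsilateral and contralateral libraries of one severity come from the same rats, which is why the block was tried. Over genes, their deviations from the group means correlated at −0.08 to 0.18 by class. With a single pool per severity, this value cannot separate shared rats from severity.

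Genes named are the 10 with the highest mean CPM, the 5 with the highest and the 5 with the lowest ratio between the infarcted libraries (at least 50 UMIs in both), Rpl13 and Rplp1, members called in at least 2 classes for MCAO contra against Sham (0 genes), and the paralogues. Examples from other lists are taken from the 3 with the highest mean CPM. Rpl28 was named after its calls were seen. Some members that this rule takes are not reported here. None of the 8 RNAs listed as kept in the nucleus was found in the files by symbol, so that list gave no value. The study's clusters were not used here.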

Additional observations from a re-analysis of the deposited data

How the results depend on the processing

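The median over 10 classes of the severe over moderate ratio (sMCAO ipsi over mMCAO ipsi) was 1.90 and became 1.73 in nuclei with no haemoglobin UMI, an alternative chosen after seeing the data. Of 60 class ratios under 6 alternatives, 59 stayed above 1, 42 lay within the counting interval of the reported ratio and 17 outside it, and the vascular ratio turned to 0.99 with nuclei thinned to 1000 UMIs. Member calls for MCAO contra against Sham were 0 as reported and 32 with no filter on low counts, where 0.437% of all pairs were called higher. They were 34 with only the Sham and contralateral libraries (1.01% of all pairs, also chosen after seeing the data). Leaving out 1 library at a time changed this count only where an ipsilateral library was left out. For MCAO ipsi against Sham the 100 calls became 256 with no filter on low counts and 51 with the stricter gate (8 classes), and 7 to 329 with 1 library left out: 7 without Sham L, 25 without Sham R, 63 without mMCAO contra, 66 without sMCAO contra, 49 without sMCAO ipsi and 329 without mMCAO ipsi. For MCAO ipsi against MCAO contra the 38 calls became 18 with DESeq2, 169 with no filter and 9 with the stricter gate, and 3 to 302 with 1 library left out, with 13 without mMCAO contra and 22 without sMCAO contra. The rat pool as a replicate block gave 46 (2.49% of all pairs), and it could not be fitted for comparisons with Sham. The unfiltered fit tests 728 member pairs in place of 496 and the stricter gate 391. The cause of the other changes was not tested. Pooled libraries in pairs limit every count of calls, and no severity was replicated.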
